A study of Mus musculus with 12 samples.

Results

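Complex I is the NADH:ubiquinone oxidoreductase of the mitochondrial inner membrane. The genes described here are the nuclear genes for its subunits, chosen by symbol: Nduf, then a, b, c, s or v, then digits only, which leaves out the assembly factors. The rule found 36 genes, and 34 of them were among the 18193 genes tested. The other 2, Ndufa11 and Ndufs6, were represented only by probe sets that list several genes, so no value is given for them. Brown adipose tissue RNA came from 12 male ob/ob mice, which are obese because they lack working leptin, and each mouse had its own Affymetrix array, labelled in 1 colour. The mice were 3 months old and ate normal chow. In the anti-FGFR1 group, 6 mice had been injected once, intraperitoneally, with 1 mg/kg of an agonistic antibody, one that switches on the growth factor receptor FGFR1. In the control IgG group, 6 mice had received a control IgG and were pair-fed, meaning that their food was matched to what the treated mice ate. Tissue was collected on day 4 in both groups, and all 12 animals carried the ob/ob genotype. No lean or freely fed group was part of the comparison.

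As background, complex I takes electrons from NADH, passes them along a flavin and a chain of iron-sulphur clusters to ubiquinone, and pumps protons across the membrane. It is built as a peripheral arm in the matrix, which does the electron transfer, joined to a membrane arm, which pumps. Its subunits come from both genomes: nuclear genes make the peripheral arm and the accessory subunits, and mitochondrial DNA makes the pumping core of the membrane arm. In brown fat the respiratory chain burns fuel for heat, because the uncoupling protein Ucp1 lets the pumped protons return without making ATP. The arrays carried that identity: Ucp1 lay between 14.5 and 14.6 on all 12 arrays, on a log2 scale whose highest value was 14.9. In whole tissue, fewer cells of a type and less RNA per cell cannot be told apart.

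Anti-FGFR1 left the complex I subunits close to the control level. In limma with Benjamini-Hochberg adjustment over all genes, 0 of the 34 tested members rose and 0 fell, with 2 at an unadjusted p under 0.05. Over all 18193 genes, 8.03% were called at an adjusted p under 0.05 (2.94% higher and 5.09% lower), and 22.4% had an unadjusted p under 0.05. Log2 fold changes of the members, anti-FGFR1 minus control IgG, ran from -0.06 (Ndufs7) to 0.11 (Ndufa13), and 32 of the 34 lay within 0.1 of 0. Their median was 0.02, beside 0.01 over all genes, and 22 members (64.7%) were above 0, beside 53.4% of all genes. The median absolute log2 fold change was 0.03 for the members and 0.07 for all genes. Of the 34 members, 32 had a mean level above 12, whereas the medians of the arrays over all probe sets were 7.19 to 7.23. Genes of like level were not set beside the members, so these differences from all genes may go with level. The 95% intervals of the 34 members all fell between -0.22 and 0.22, that is, within 1.17-fold of the control level on the deposited scale. The bound farthest from 0 was 0.485 when genes were represented by their probe set of largest interquartile range. That bound belonged to Ndufa12, then at -0.16 ± 0.15 on a probe set with a mean level of 6.90.

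**Figure D1:**
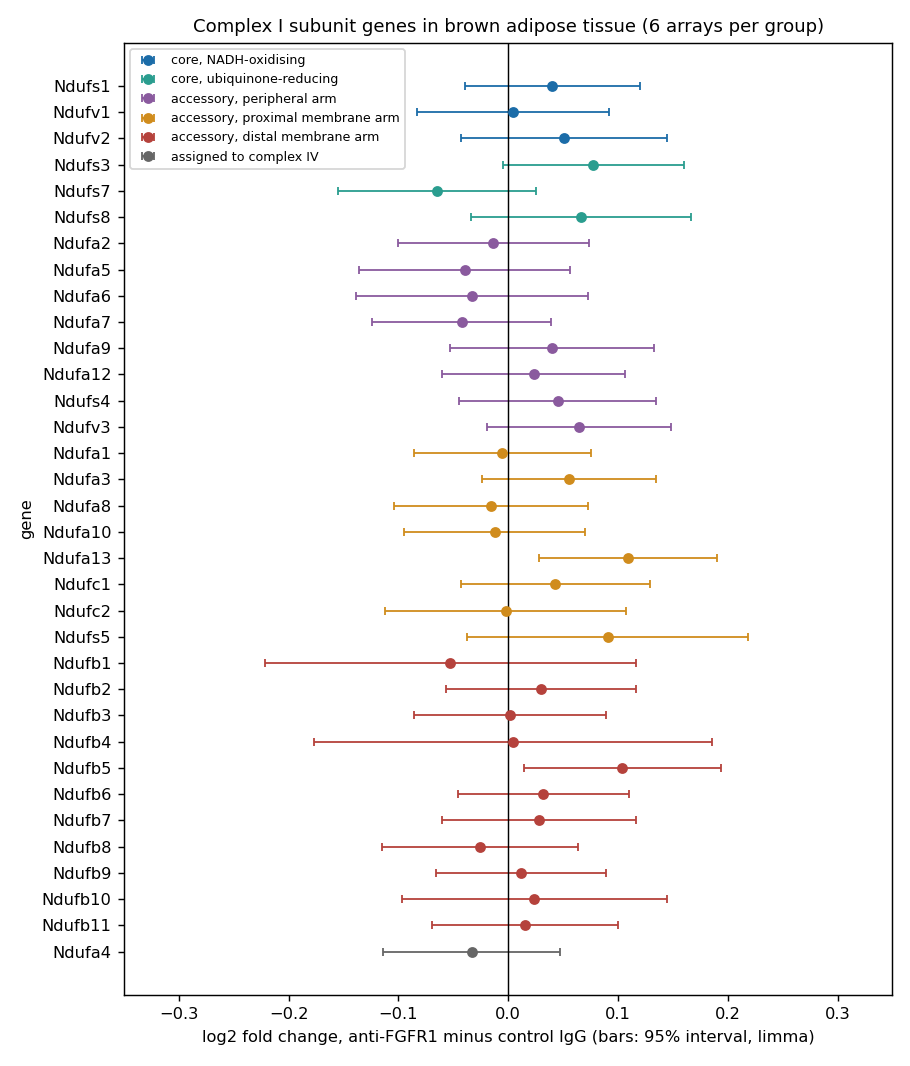
Log2 fold change of each of the 34 tested complex I members (horizontal axis, anti-FGFR1 minus control IgG, points) with its 95% interval from limma (bars), ordered and coloured by role, from 6 arrays per group. The intervals of Ndufa13 and Ndufb5 lie above 0, the other 32 include 0, and the widest belong to Ndufb1 and Ndufb4.

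Promoter sequence gives another view of the members that the choice by symbol did not use. Windows of 300 bases, from 250 before a transcription start to 50 from the start on, were taken from RefSeq for the build GRCm38.p6 and found for 33 of the 36 members, 35 windows in all. Their median GC content was 59%, beside 52.7% over all 32851 windows. The motifs searched, on both strands, were GCGCATGCG for the respiratory factor NRF1, CCGGAAGT for ETS factors such as GABPA, TCAAGGTCA for the estrogen-related receptors, and AAGATGGCG for YY1. The YY1 letters were in 5 of the 35 member windows (14.3%), those of Ndufa9, Ndufc1, Ndufs4, Ndufs6 and Ndufs7, and in 1.4% of all windows. In all 5 the match lay on the gene's strand and began between 22 and 35 bases after the start. These letters contain ATG, and whether that is the start codon of these genes was not tested. The NRF1 letters were in 2 member windows, those of Ndufa8 and Ndufa11 (5.71%, beside 1.75% of all windows), and in Ndufa11 they matched on both strands at overlapping positions. The ETS letters were in 1 member window, that of Ndufs3 (2.86%, beside 3.89%). The ERR letters were in 0 member windows and in 0.423% of all windows. No match overlapped another apart from the NRF1 pair in Ndufa11. A match is a description of letters, not a binding site. The windows shown are of Ndufa13, the member with the smallest p, Ndufs3, the core subunit with the smallest p, Ndufs4, whose probe sets disagreed, and Ndufs7, the member with the largest negative difference. They are written 5′ to 3′ on the gene's strand with the motif letters in capitals, ETS on the opposite strand in Ndufs3 and YY1 in Ndufs4 and Ndufs7; the Ndufa13 window held none of the motifs. They lie at chr8:69901971-69902270 (- strand, Ndufa13), chr2:90904672-90904971 (- strand, Ndufs3), chr13:114388045-114388344 (- strand, Ndufs4), chr10:80249199-80249498 (+ strand and Ndufs7).
Ndufa13: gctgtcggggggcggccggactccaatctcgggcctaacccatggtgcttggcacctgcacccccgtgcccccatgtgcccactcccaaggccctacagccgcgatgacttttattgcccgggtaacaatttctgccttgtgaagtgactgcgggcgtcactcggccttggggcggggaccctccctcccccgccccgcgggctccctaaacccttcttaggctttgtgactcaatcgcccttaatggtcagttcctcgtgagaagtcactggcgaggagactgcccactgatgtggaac
Ndufs3: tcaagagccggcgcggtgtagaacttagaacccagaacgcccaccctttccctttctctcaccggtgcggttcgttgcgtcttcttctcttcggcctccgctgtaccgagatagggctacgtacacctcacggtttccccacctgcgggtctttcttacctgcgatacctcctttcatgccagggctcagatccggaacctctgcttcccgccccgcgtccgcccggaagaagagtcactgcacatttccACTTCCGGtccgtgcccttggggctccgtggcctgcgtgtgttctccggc
Ndufs4: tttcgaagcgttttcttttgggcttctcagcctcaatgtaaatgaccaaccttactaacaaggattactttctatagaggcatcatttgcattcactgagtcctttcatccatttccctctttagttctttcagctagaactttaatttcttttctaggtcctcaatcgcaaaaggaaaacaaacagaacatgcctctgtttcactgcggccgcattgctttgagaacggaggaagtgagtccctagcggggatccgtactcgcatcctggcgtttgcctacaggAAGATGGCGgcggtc
Ndufs7: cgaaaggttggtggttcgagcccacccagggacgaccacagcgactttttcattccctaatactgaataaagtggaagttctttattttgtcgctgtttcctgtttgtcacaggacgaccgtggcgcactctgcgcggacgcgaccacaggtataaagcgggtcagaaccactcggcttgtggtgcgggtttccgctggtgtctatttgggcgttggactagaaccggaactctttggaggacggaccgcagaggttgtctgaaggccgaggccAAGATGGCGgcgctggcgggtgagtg

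The core of the peripheral arm holds the flavin and the iron-sulphur clusters, and none of its 6 tested subunits passed the test. In the NADH-oxidising module, Ndufv1, which binds NADH and the flavin, lay between 13.41 and 13.58 in controls (median 13.53) and between 13.45 and 13.55 after anti-FGFR1 (median 13.53). The treated arrays all lay inside the control range, and the log2 fold change was 0.0042 ± 0.041 (SE, limma adjusted p = 0.969). Ndufs1, the largest subunit of that module and the carrier of several clusters, lay between 12.68 and 12.78 in controls (median 12.74) and between 12.72 and 12.82 after anti-FGFR1 (median 12.79). Although 4 of its 6 anti-FGFR1 arrays were above all controls, the log2 fold change of 0.04 ± 0.04 did not pass (limma adjusted p = 0.572). Ndufv2, which carries an iron-sulphur cluster beside the flavin, differed by 0.05 ± 0.04, with overlapping groups.

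In the ubiquinone-reducing module the 3 tested core subunits did not share a direction, and none passed. Ndufs3, which carries no cluster of its own, lay between 13.42 and 13.53 in controls (median 13.51) and between 13.50 and 13.61 after anti-FGFR1 (median 13.58). On 5 of the 6 anti-FGFR1 arrays it was above all controls, yet the log2 fold change of 0.08 ± 0.04 did not pass (limma adjusted p = 0.253). Ndufs7, which holds the last cluster before ubiquinone, was at 12.83 to 12.95 in controls (median 12.89) and 12.77 to 12.93 after anti-FGFR1 (median 12.81). It was below all controls on 4 of 6 anti-FGFR1 arrays, with a log2 fold change of -0.06 ± 0.04 (limma adjusted p = 0.394). Ndufs8, which carries further clusters, lay between 13.38 and 13.61 in controls (median 13.57) and between 13.53 and 13.66 after anti-FGFR1 (median 13.60). On its brightest probe set the groups overlapped, and the log2 fold change was 0.07 ± 0.05 (limma adjusted p = 0.437). All 6 of its probe sets were above 0, between 0.07 and 0.14. The next brightest, at a mean of 13.4, was at 0.12 ± 0.05 (limma adjusted p = 0.146 over single-gene probe sets). On that probe set all 6 anti-FGFR1 arrays were above all controls.

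Accessory subunits brace the peripheral arm, and the 8 tested ones lay between -0.04 (Ndufa7) and 0.06 (Ndufv3), with 4 above 0 and a median of 0.0048. Ndufv3, a small subunit at the NADH-oxidising end, lay between 13.39 and 13.49 in controls (median 13.47) and between 13.47 and 13.60 after anti-FGFR1 (median 13.51). It was above all controls on 5 of 6 anti-FGFR1 arrays, and its log2 fold change of 0.06 ± 0.04 did not pass (limma adjusted p = 0.356). Ndufs4, whose loss causes the mitochondrial brain disease Leigh syndrome, differed by 0.04 on its brightest probe set, Ndufa9, near the joint of the arms, by 0.04 and Ndufa12 by 0.02. Ndufa2, Ndufa5, Ndufa6 and Ndufa7 were at -0.01, -0.04, -0.03 and -0.04, and limma adjusted p values in this group were between 0.356 and 0.888.

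The membrane arm next to the joint held the member with the smallest p. Ndufa13, also known as GRIM-19, a membrane-spanning subunit first described as a regulator of cell death, lay between 13.029 and 13.150 in controls (median 13.09). After anti-FGFR1 it lay between 13.150 and 13.253 (median 13.20), so that all 6 anti-FGFR1 arrays were above the highest control, although by a margin that vanishes in rounding. The log2 fold change was 0.11 ± 0.04 (SE, 95% interval 0.03 to 0.19, limma adjusted p = 0.0975). On the brightest probe sets, Ndufa13 was the only one of the 34 members whose groups did not overlap, beside 5.12% of all genes. Ndufa13 passed under 2 of the 23 alternative settings, both with the same fold change and a smaller SE. With an intensity trend in the variance its limma adjusted p was 0.0252, and with only genes above the median level tested it was 0.0323.

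On their brightest probe sets, the other 7 tested subunits of the proximal membrane arm lay between -0.02 (Ndufa8) and 0.09 (Ndufs5). Ndufs5, on the side that faces the intermembrane space, was the most variable of them, at 12.29 to 12.57 in controls (median 12.49) and 12.41 to 12.70 after anti-FGFR1 (median 12.56). Only 1 anti-FGFR1 array exceeded all controls, and the log2 fold change was 0.09 ± 0.06 (limma adjusted p = 0.401). Ndufa3 differed by 0.06 ± 0.04 and Ndufc1 by 0.04 ± 0.04. The other probe set of Ndufc1, at a mean of 13.1, was at 0.12 ± 0.04 (limma adjusted p = 0.107 over single-gene probe sets). That probe set was above all controls on 5 of 6 anti-FGFR1 arrays. For Ndufa1, Ndufa10 and Ndufc2 the brightest probe set was within 0.02 of 0.

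The 11 subunits of the distal membrane arm, where the Ndufb subunits surround the proton-pumping core, had a median log2 fold change of 0.02, with 9 above 0. Ndufb5 lay between 13.22 and 13.35 in controls (median 13.26) and between 13.31 and 13.45 after anti-FGFR1 (median 13.36). Of its 6 anti-FGFR1 arrays, 3 were above all controls, and the log2 fold change of 0.10 ± 0.04 did not pass (95% interval 0.01 to 0.19, limma adjusted p = 0.155). Its second probe set was at 0.13. With the 3' to 5' RNA quality measure (the 3' minus 5' level of control probe sets) as a covariate, Ndufb5 was at 0.04 ± 0.05 (limma adjusted p = 0.709). The other 10 lay between -0.05 (Ndufb1) and 0.03 (Ndufb6), with limma adjusted p values between 0.658 (Ndufb6) and 0.991 (Ndufb3). Ndufb1 and Ndufb4 were the only members whose brightest probe set had a mean level of 12 or less, and they had the largest SEs (0.08 each). The Ndufb4 probe set, between 5.85 and 6.30, was below the median of all probe sets on every array, and its difference was 0.0040 ± 0.085.

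Ndufa4 bears a complex I name but is now counted as a subunit of complex IV, cytochrome c oxidase. It lay between 13.80 and 13.87 in controls (median 13.84) and between 13.74 and 13.86 after anti-FGFR1 (median 13.81). On 3 of the 6 anti-FGFR1 arrays it was below all controls, and the log2 fold change was -0.03 ± 0.04 (limma adjusted p = 0.656). Leaving it out of the mean of the members changed the difference of that mean from 0.018 to 0.020.

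**Figure D2:**
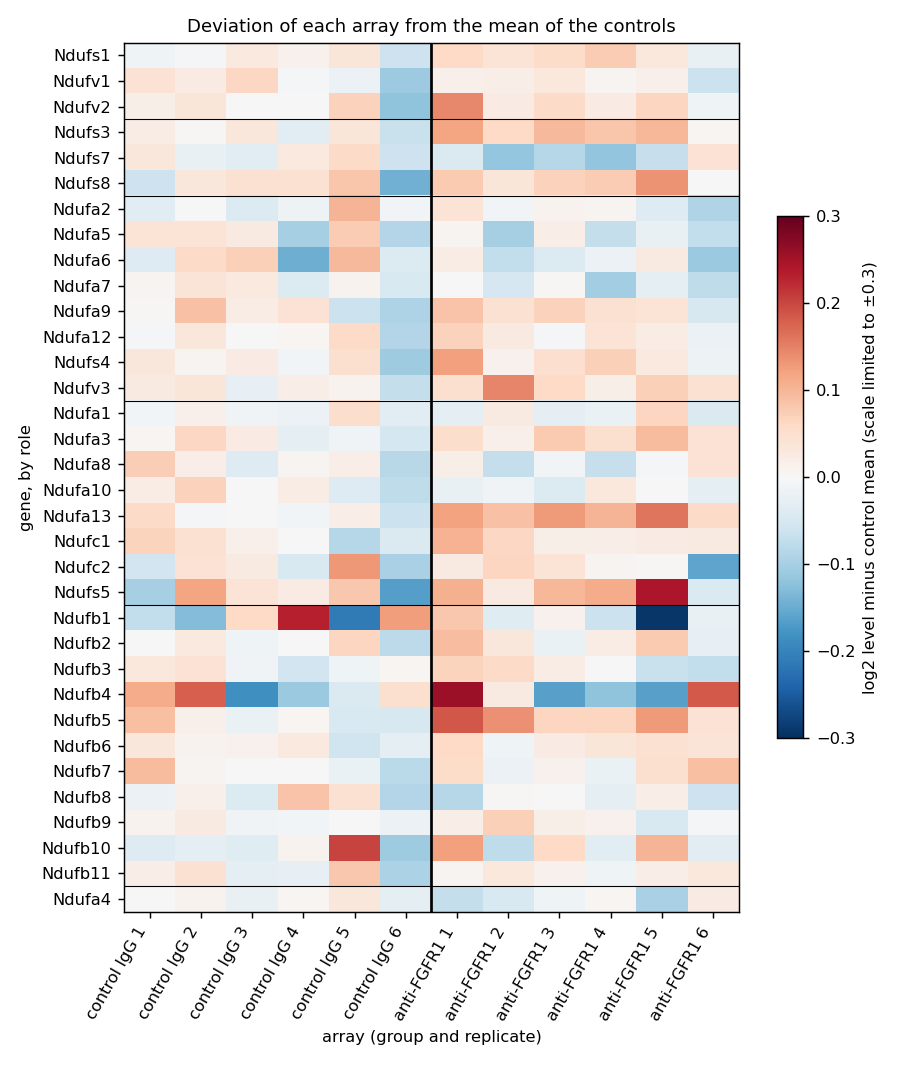
Log2 level of each of the 34 tested members (rows, by role) on each of the 12 arrays (columns) minus the mean of its 6 control arrays; the colour scale is limited to ±0.3. Control IgG replicate 6 is mostly blue and anti-FGFR1 replicate 1 mostly red, Ndufa13 is red on all 6 anti-FGFR1 arrays, and the strongest single cells belong to the dim probe sets of Ndufb1 and Ndufb4 and to Ndufs5.

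Array by array, the members tended to be high or low together. The mean of the 34 members lay between 12.83 and 12.92 in controls and between 12.89 and 12.95 after anti-FGFR1. On anti-FGFR1 replicate 1, the highest array, 28 of the 34 members were above their own median over the 12 arrays. On control IgG replicate 6, the lowest, 4 were. The counts for the other 10 arrays ran from 9 (control IgG replicate 3) to 26 (control IgG replicate 2), both of them controls. Without control IgG replicate 6 the median log2 fold change of the members was 0.0068, against 0.019 with it, and 0 members were called either way. The median within-group SD of the members was 0.05, beside 0.11 over all genes. Most members were far brighter than the typical gene, and the SD of genes of like level was not compared.

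Skeletal muscle is rich in complex I, lies next to brown fat and can be carried along at dissection. The mean of 17 muscle markers was spread widely in both groups, from 9.49 to 11.7 in controls and from 7.11 to 11.5 after anti-FGFR1, and none of the 17 passed limma or had an unadjusted p under 0.05 (median log2 fold change -0.57). Anti-FGFR1 replicate 5 had by far the lowest muscle mean, 7.11, while its complex I mean of 12.92 lay inside the range of the other arrays of its group. Control IgG replicate 6 had the lowest muscle mean of the controls, 9.49, and also the lowest complex I mean of the 12 arrays, 12.83. A link between the 2 means over arrays was not tested. With the muscle mean as a covariate the median of the members was 0.03 with 0 called, and without the 2 arrays lowest in muscle markers it was 0.01 with 0 called. The 3' to 5' difference of the Actb and Gapdh control probe sets, a sign of RNA quality, averaged 0.161 ± 0.031 on the control arrays and 0.203 ± 0.027 on the treated ones (log2, SD, n = 6 each). With it as a covariate the median of the members was -0.00035, 0 members were called, and Ndufa13 was at 0.08 ± 0.05 (limma adjusted p = 0.422). The markers of brown adipocytes (8 measured) had 1 call up (Elovl3) and 1 down (Zic1), with a mean of 11.1 to 11.5 in controls and 11.4 to 11.6 after anti-FGFR1. Of 12 macrophage markers 3 rose, and their mean was 9.59 to 10.27 in controls and 9.83 to 10.25 after anti-FGFR1. Of 11 endothelial markers 6 fell, with a mean of 9.56 to 9.81 against 9.30 to 9.52, and 5 of 8 smooth muscle and pericyte markers fell (9.87 to 10.08 against 9.56 to 9.78). The part of the macrophage, endothelial and smooth muscle markers in the complex I values was not tested.

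**Figure D3:**
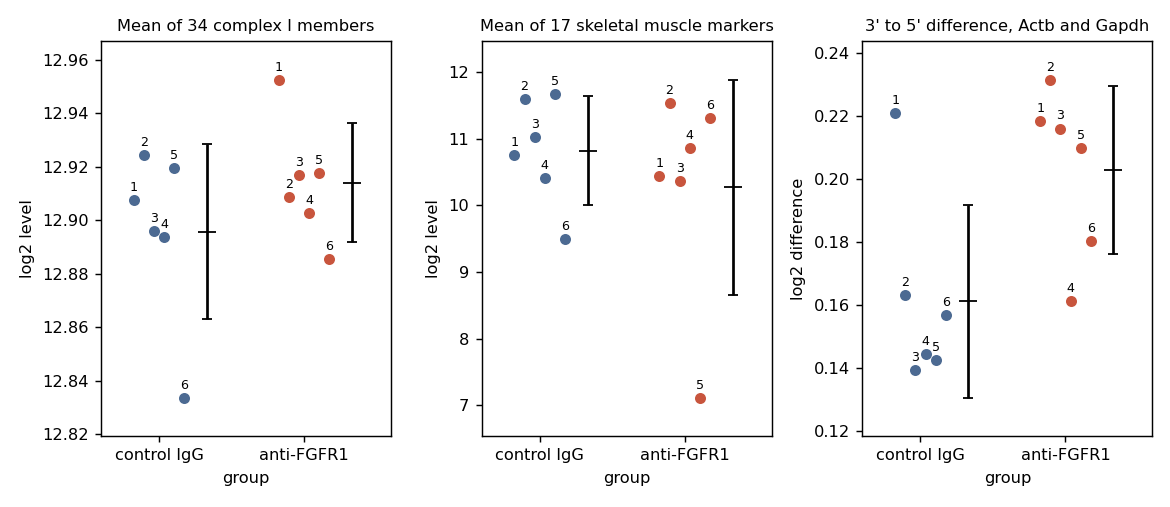
Mean log2 level of the 34 complex I members, mean log2 level of 17 skeletal muscle markers, and the 3' to 5' difference of the Actb and Gapdh control probe sets (log2), per array; points are arrays numbered by replicate, and black marks are the mean ± SD of 6 arrays. The vertical axes do not start at 0 and differ in span: the complex I means cover 12.83 to 12.95 and the muscle means 7.11 to 11.7.

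Whether a member passed depended on the probe set for 2 members, Ndufs4 and Ndufa10. The 34 members had 72 probe sets with a single gene, and 19 members had more than 1. Fitted separately, with adjustment over all 34945 single-gene probe sets, 2 of the 72 passed, both higher, beside 6.9% of all such probe sets. A dimmer probe set of Ndufs4 lay between 9.76 and 10.05 in controls (median 9.88) and between 10.08 and 10.25 after anti-FGFR1 (median 10.14). All 6 anti-FGFR1 arrays were above all controls, and the log2 fold change was 0.26 ± 0.05 (limma adjusted p = 0.0092). The brightest Ndufs4 probe set, with a mean of 12.1, overlapped between groups, at 11.94 to 12.10 in controls (median 12.06) and 12.03 to 12.17 after anti-FGFR1 (median 12.09). Of the 2 dimmest Ndufs4 probe sets, the one with a mean of 7.64 was at 0.25 ± 0.09 (limma adjusted p = 0.096). The other was at -0.09 ± 0.09, with a mean of 5.10, below the median of all probe sets on every array.

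Ndufa10, an accessory subunit with the fold of a nucleoside kinase, showed the same split. Its dimmer probe set lay between 9.49 and 9.80 in controls (median 9.70) and between 9.81 and 10.03 after anti-FGFR1 (median 9.87), again with all 6 above all controls. The log2 fold change was 0.24 ± 0.07 (limma adjusted p = 0.037), whereas the bright probe set, with a mean of 13.7, was at -0.01 ± 0.04. Over 38 pairs of a member's brightest probe set and another of the same gene, the dimmer one had the larger absolute fold change in 28. Dim probe sets can also be noisier: the SE was 0.15 for the dimmest Ndufa12 probe set and 0.04 for its brightest. For Ndufa3 these SEs were 0.08 and 0.04. The part of noise in the count of 28 was not tested. The difference between the probe sets of a pair was compared between groups by a two-sided exact permutation test over arrays. It was 0.21 for Ndufs4 (exact permutation p = 0.0022, the smallest the design allows) and 0.25 for Ndufa10 (exact permutation p = 0.0043). Adjusted over the 38 pairs both p values were 0.0823, and 0 pairs passed, with 6 at an unadjusted p under 0.05. With this many arrays and pairs, the smallest possible p of a lone pair is itself adjusted to 0.0823. The adjustment could therefore not have passed a single pair by itself. Both genes were singled out after their values were seen, and which transcripts each probe set reads was not tested. In 10 members the probe sets differed in sign. Those of Ndufa12 ran from -0.16 to 0.06 and those of Ndufa3 from -0.11 to 0.07, and in the 6 members other than these and Ndufs4 and Ndufa10 the fold changes all lay between -0.07 and 0.05. The negative value came from a probe set with a mean level of 6.90 for Ndufa12 and of 7.16 for Ndufa3. Both levels were below the lowest array median, 7.19, and the other probe sets of Ndufa12 and Ndufa3 were all above 0.

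**Figure D4:**
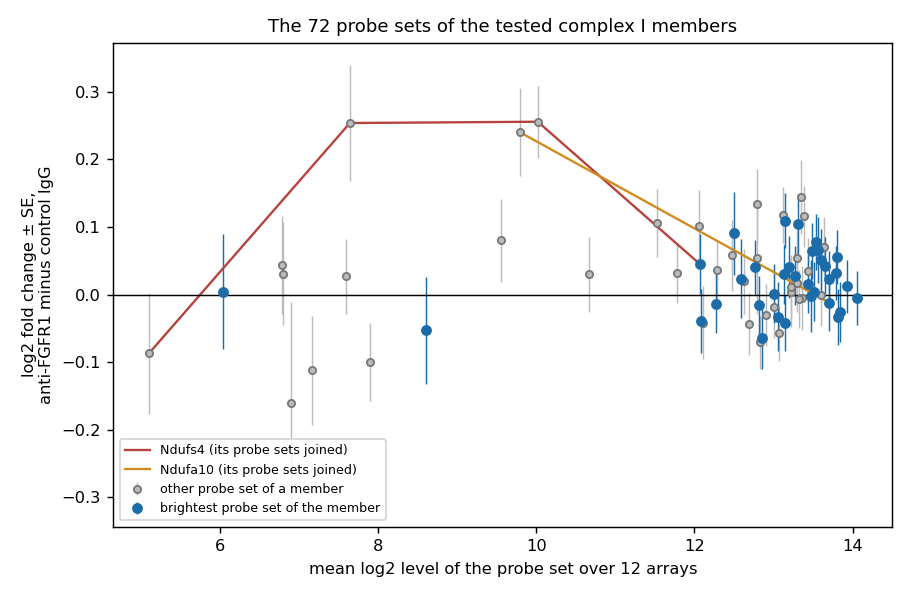
Log2 fold change ± SE of the 72 single-gene probe sets of the tested members (vertical axis, anti-FGFR1 minus control IgG) against their mean log2 level over 12 arrays (horizontal axis); blue points are the brightest probe set of each member and grey points the others, with the probe sets of Ndufs4 and Ndufa10 joined by lines. Most blue points sit between 12 and 14 and near 0, and the called probe sets of Ndufs4 (0.26) and Ndufa10 (0.24) sit near a level of 10.

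Building complex I takes assembly factors that do not stay in the finished enzyme. Of 16 measured, 2 rose, 1 fell and 13 did not pass (limma), so that 18.8% were called, beside 8.03% of all genes, and 7 (43.8%) had an unadjusted p under 0.05, beside 22.4% of all genes. Their median log2 fold change was 0.07, with 11 above 0. Timmdc1, a membrane protein needed to build the membrane arm, lay between 8.81 and 8.97 in controls (median 8.87) and between 8.93 and 9.42 after anti-FGFR1 (median 9.16). On 5 of 6 anti-FGFR1 arrays it was above all controls, and it rose by 0.28 ± 0.07 (limma adjusted p = 0.0239). It no longer passed without control IgG replicate 3 (0.26, limma adjusted p = 0.0579), anti-FGFR1 replicate 1 (0.26, limma adjusted p = 0.0562) or anti-FGFR1 replicate 5 (0.26, limma adjusted p = 0.0534), the array with little muscle RNA.

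Foxred1, a flavin-binding assembly factor, lay between 9.96 and 10.10 in controls (median 10.07) and between 10.15 and 10.40 after anti-FGFR1 (median 10.22). The groups did not overlap, and it rose by 0.19 ± 0.05 (limma adjusted p = 0.0224). Ndufaf5, the enzyme that modifies an arginine of Ndufs7, was the factor that fell. It lay between 9.14 and 9.27 in controls (median 9.22) and between 8.85 and 9.07 after anti-FGFR1 (median 8.98), below all controls on all 6 arrays. The fall was 0.24 ± 0.05 on the log2 scale (limma adjusted p = 0.0041). Among those that did not pass, named after their values were seen, Ndufaf6 was at 0.15 ± 0.04 (limma adjusted p = 0.0503) and Nubpl, which delivers iron-sulphur clusters to complex I, at 0.12 ± 0.04 (limma adjusted p = 0.0609). In both, all 6 anti-FGFR1 arrays were above all controls, so that 4 of the 16 factors had groups that did not overlap, beside 5.12% of all genes. With the 3' to 5' difference in the model, Timmdc1 (0.26, limma adjusted p = 0.162) and Foxred1 (0.19, limma adjusted p = 0.120) no longer passed, whereas Ndufaf5 still did. Without the 2 arrays lowest in muscle markers, limma adjusted p was 0.0841 for Timmdc1 and 0.0885 for Foxred1, and Ndufaf5 again passed.

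Of the relatives and mitochondrial genes of the complex, none passed on the brightest probe sets. Ndufab1, the acyl carrier protein that is also a complex I subunit and falls outside the symbol rule, was at 0.03 ± 0.05 on its brightest probe set (mean 13.5). Of its 4 dimmer probe sets, those at a mean of 9.40 and 8.96 were higher by 0.41 (limma adjusted p = 0.0027 over single-gene probe sets) and 0.34 (limma adjusted p = 0.0337), and the others were at 0.02 and -0.28 and did not pass. Ndufa4l2, a relative of Ndufa4, was at -0.05 ± 0.07. Of the mitochondrial genes for complex I subunits only ND5, which forms part of the proton-pumping core, was measured. It lay between 13.98 and 14.25 in controls (median 14.12) and between 13.96 and 14.22 after anti-FGFR1 (median 14.17), a difference of 0.03 ± 0.05 (limma adjusted p = 0.800).

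Around complex I in the chain, few genes passed. Of 10 other enzymes that hand electrons to ubiquinone, limma called 0, and the unadjusted p was under 0.05 for 1, choline dehydrogenase, Chdh (0.20 ± 0.09, limma adjusted p = 0.216). Sdhb, the iron-sulphur subunit of complex II, was at 0.06 ± 0.04. Of 11 genes of ubiquinone synthesis 1 rose and 0 fell (9.09% called), close to the 8.03% of all genes. The gene was Coq5, a methyltransferase that modifies the ubiquinone ring, which lay between 10.16 and 10.34 in controls (median 10.21) and between 10.41 and 10.56 after anti-FGFR1 (median 10.53). It rose by 0.28 ± 0.05 (limma adjusted p = 0.0016) with all 6 arrays above all controls, and its other probe set was at 0.23.

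Further down the chain, 1 of 10 genes of complex III and cytochrome c and 1 of 12 genes of complex IV rose, and 0 fell. These shares, 10% and 8.33%, were close to the 8.03% called over all genes. Uqcrc2, a core protein of complex III, lay between 13.02 and 13.32 in controls (median 13.22) and between 13.31 and 13.41 after anti-FGFR1 (median 13.38), a rise of 0.18 ± 0.05 (limma adjusted p = 0.0487). Its other probe set, at a mean of 13.2, was at 0.09 ± 0.04 (limma adjusted p = 0.238 over single-gene probe sets). Cox7a1, the complex IV subunit isoform of heart, muscle and brown fat, lay between 13.13 and 13.32 in controls (median 13.20) and between 13.33 and 13.45 after anti-FGFR1 (median 13.36). Its groups did not overlap, and it rose by 0.16 ± 0.05 (limma adjusted p = 0.0423). Both calls lay close to the threshold: that of Uqcrc2 was lost when any of 11 single arrays was left out, that of Cox7a1 when any of 10 was. Neither passed with the 3' to 5' difference in the model, where Uqcrc2 was at 0.16 ± 0.07 and Cox7a1 at 0.15 ± 0.06, or without the 2 arrays lowest in muscle markers (0.17 ± 0.06 and 0.15 ± 0.05). Limma called 0 of 15 genes of ATP synthase, and the unadjusted p was under 0.05 for 2, Atp5k (0.10 ± 0.04) and Atp5g3 (-0.09 ± 0.04). The groups did not overlap for 3 of the 15, beside 5.12% of all genes. Among these, all 6 anti-FGFR1 arrays were above all controls for Atp5k and below all controls for Atp5g3. The other probe sets of Atp5k were at 0.10 and 0.16 and did not pass. The lists' medians were 0.04 for complex III and cytochrome c, 0.0066 for complex IV and 0.03 for ATP synthase, beside 0.02 for the complex I members and 0.01 for all genes, and differences between lists were not tested.

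**Figure D5:**
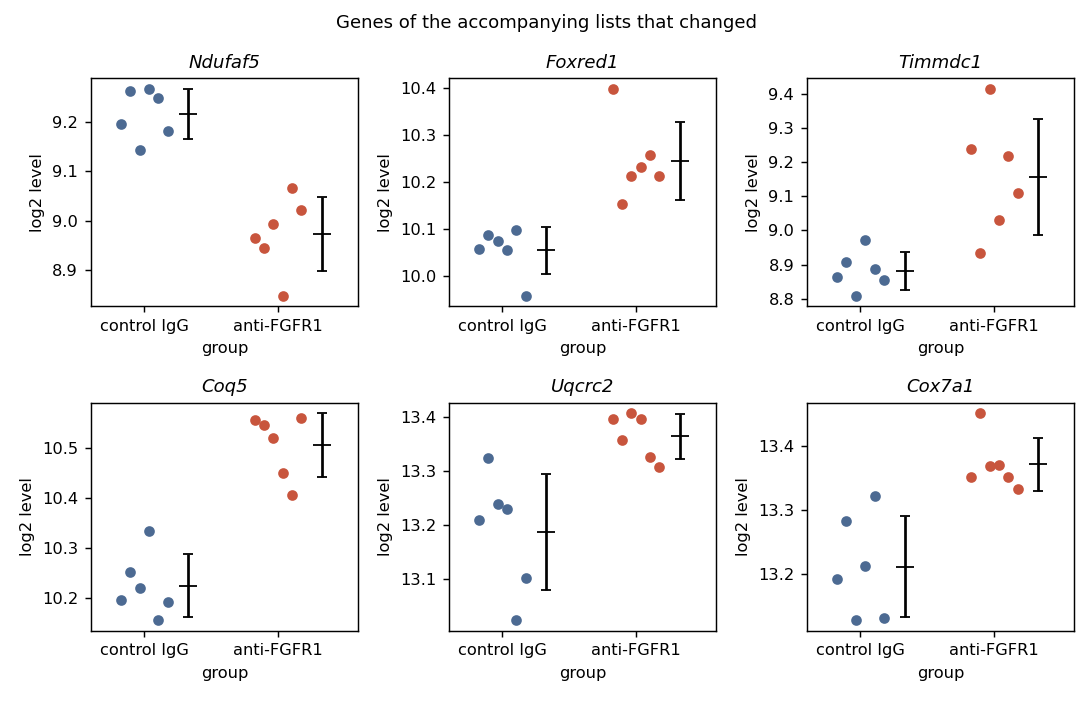
Log2 levels per array of the 6 genes of the accompanying lists that passed limma at an adjusted p under 0.05: the assembly factors Ndufaf5, Foxred1 and Timmdc1, Coq5 of ubiquinone synthesis, Uqcrc2 of complex III and Cox7a1 of complex IV (points are arrays, black marks the mean ± SD of 6). The vertical axes do not start at 0; the groups are separate for Ndufaf5, Foxred1, Coq5 and Cox7a1, and 1 anti-FGFR1 array falls within the control range for Timmdc1 and for Uqcrc2.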

How the data were processed

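Per the labels, RNA from brown adipose tissue was measured on 12 one-colour arrays, 6 per group, 1 mouse each. Each deposited value is a log2 expression value per probe set and array. Per the submitters' processing notes, the authors used RMA, which corrects background, normalizes between arrays and summarises probes, and limma; versions are not given in the sources used here. The 45101 probe sets ran from 3.16 to 14.9, with array medians of 7.19 to 7.23. The number of arrays limits the precision, since arrays give no counts.

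Gene names came from the platform's probe table, with symbols updated by Entrez identifier to RefSeq of GRCm38.p6 (34741 of 34945 single-gene probe sets matched). The 64 control probe sets, 932 with several genes and 9211 without an entry stayed out, with some control probe sets counted in another of these classes too. A gene was represented by its probe set of highest mean over the 12 arrays. The comparison used limma 3.58.1 (R 4.3.3; lmFit and eBayes, two-sided, no covariates), with Benjamini-Hochberg adjustment over 18193 genes; "called", "rose" and "fell" mean an adjusted p under 0.05. The fit was tested on simulated data. Alternatives were normalization, probe set rule, a filter on dim genes, the variance model, covariates, the replicate number as a block and leaving out arrays.

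Named members are the 8 with the smallest p, the tested core subunits, Ndufa4, those at either extreme and those whose probe sets differ in sign; of each other list, the genes that passed or the 2 with the smallest p. The members, lists and tests were chosen with earlier results of these data known. Other genes are said to be named after their values were seen.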

Additional observations from a re-analysis of the deposited data

Results flagged for a closer look

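In groups of 6 arrays, the highest or lowest array was compared with the rest by Dixon's ratio of its gap to the range. Of 88 groups of values looked at, 9 had an array past the 95% critical value, and chance alone flags about 1 in 20. Control IgG replicate 6 was the low array in the mean of the complex I members (12.83, next lowest 12.89), in Ndufs4 (11.94, next 12.04) and in the assembly factor Foxred1 (9.96, next 10.06). Anti-FGFR1 replicate 6 was the low array in Ndufv1 (13.45, next 13.52), Ndufa9 (13.13, next 13.22) and Ndufc2 (13.32, next 13.48). Control IgG replicate 5 was high in Ndufa2 (12.38, next 12.28), and anti-FGFR1 replicate 2 was high in Cox7a1 (13.45, next 13.37). The mean of the skeletal muscle markers was low on anti-FGFR1 replicate 5 (7.11, next 10.37). Without control IgG replicate 6, Foxred1 was still called.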

How the results depend on the processing

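No complex I member was called under the other normalizations, the mean of a gene's probe sets, array weights, the covariates, the replicate block or when any single array or the 2 arrays lowest in skeletal muscle markers were left out. The count was 1 with the probe set of largest interquartile range (Ndufa10), 1 with only genes above the median level and 1 with an intensity trend (both Ndufa13), and 2 of 72 with every single-gene probe set on its own, an alternative chosen, like the omission of the 2 arrays, after seeing the data. The interval bound of a member farthest from 0 was 0.222 as reported and 0.306 with the 3' to 5' covariate. With the probe set of largest interquartile range it was 0.485, that of Ndufa12. The members' median stayed between -0.00035 and 0.03. Leaving out single arrays gave 0 calls each time and medians from 0.0068 to 0.03.

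Over all genes, 688 were called with the 3' to 5' covariate against 1461, 618 of them shared; leaving out single arrays gave 1043 to 1698. Lower calls made up 63.4%, and 50.9% after another quantile normalization. The count of called genes in the other lists, 6 as reported, was 11 after another quantile normalization and 10 with the mean of probe sets. It was 3 with the 3' to 5' covariate: Coq5, Ndufaf5 and the assembly factor Acad9, which was not among the 6. The count was 3 with the replicate block and 2 without the 2 arrays lowest in muscle markers. Leaving out single arrays gave 3 to 6. Same-numbered arrays deviated together for replicates 1 to 3 (correlations of deviations over genes 0.218 to 0.329, each best with its own number) but not for 4 to 6 (-0.29 to -0.0038), so not every pair passed 0.1 and the numbers were not taken to pair the mice. The replicate block lost the calls of Timmdc1 (adjusted p = 0.0559), Uqcrc2 (0.0523) and Cox7a1 (0.0612), with the same folds, and gave 1337 calls over all genes.

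Members near 0 changed sign without passing. Ndufv1 was at -0.00035 with median centring, -0.0027 with the mean of probe sets, -0.0067 with the probe set of largest interquartile range, -0.020 with the 3' to 5' covariate, and -0.020 when leaving out the 2 arrays lowest in muscle. Ndufc2 was at 0.0021 with array weights, 0.0050 with the muscle covariate and 0.044 with the probe set of largest interquartile range, and Ndufb9 at -0.0032 with the 3' to 5' covariate. With the probe set of largest interquartile range Ndufa3 was at -0.11, Ndufa12 at -0.16 and Ndufs4 at -0.087, while Ndufa10 was at 0.24 and passed. Those probe sets of Ndufa3, Ndufa12 and Ndufs4 had mean levels of 7.16, 6.90 and 5.10, below every array median. With the mean of probe sets Ndufa10 was at 0.11 and Ndufa12 at -0.0063. Leaving out single arrays gave -0.018 to 0.018 for Ndufv1, -0.022 to 0.029 for Ndufc2, -0.027 to 0.0017 for Ndufa10 and -3.6e-05 to 0.023 for Ndufb9. The causes were not tested.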
